A study of Ovis aries with 42 samples.

Results

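The 9 genes described here, KCNQ1, KCNE3, KCNN4, KCNN2, KCNMA1, KCNK5, KCNK1, KCNJ15 and KCNJ16, encode potassium channels or channel subunits that have been studied in secretory epithelia. They were taken by name, as genes of that role. All 9 were found in both gene tables, that of liver with 22981 genes and that of gallbladder with 29285 genes, and all 9 passed the filter on low counts in both. Each table also held 85 other genes whose symbol begins with KCN. RNA sequencing had been carried out on liver and gallbladder of sheep with a disrupted CFTR gene, labelled CFTR-/- or CF, and of wild-type (WT) sheep. CFTR is the luminal anion channel whose loss causes cystic fibrosis, and the title places the work in early liver and gallbladder disease of that animal. Liver was sampled from CF and WT fetuses at gestation day 50, 65, 80, 100 and 120 (d50 to d120), from CF animals at birth and from WT animals at term. Gallbladder was sampled from CF fetuses at d80, d100 and d120, and from WT animals at d100, d120 and birth. Each of the 12 liver groups and 6 gallbladder groups had 2 libraries, which are called the first and the second below. Both CF d100 gallbladder columns carry the number of a single library, so that they are separate libraries or animals is not known. Donor numbers with a shared stem joined the pair in 6 of the 10 fetal liver groups and in WT d100 gallbladder, and the second WT d65 liver library carries the donor number of a CF d100 animal, so the labels conflict on that donor. The labels state no treatment and do not say which CFTR allele was carried, and the 6 chromatin accessibility libraries were not analysed here.

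In an epithelium that secretes fluid, chloride leaves the cell through CFTR and other anion channels on the luminal side, and potassium channels let potassium leave so that the membrane voltage keeps driving chloride out. Calcium-activated channels serve secretion evoked by calcium signals, and the cAMP-regulated complex of KCNQ1 with KCNE3 serves secretion evoked by hormones such as secretin, which acts on bile ducts. Tandem-pore channels and inward rectifiers set the resting voltage and take part in pH regulation and potassium recycling. Bile duct cells and the gallbladder lining are the secretory epithelia of these organs, while hepatocytes make up most of the liver and the fetal liver is also the main site of red cell formation.

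Totals ran from 29.7 to 56.8 M counts in liver libraries and from 32.4 to 54.4 M in gallbladder libraries. CFTR transcript was not lost in the CF libraries: it lay between 38.4 and 42.2 CPM in CF liver at birth and between 0.846 and 1.81 CPM in WT liver at term, and between 30.1 and 51.8 CPM in CF gallbladder and 7.13 and 11.5 CPM in WT gallbladder at d100 and d120. CPM here is the count per M counts of the library total after TMM scaling, and the 2 tissues were scaled separately, so no level was tested between them. Transcript lengths were not used, so levels are compared between groups for a gene and not between genes. In these bulk samples, fewer cells of a type and less RNA per cell cannot be told apart. The labelled tissue was checked against cell type markers. The summed level of 10 hepatocyte markers in the WT gallbladder libraries at d100 and d120 was 85564 to 215856 CPM, and in WT fetal liver, in a table scaled separately, 181650 to 254894 CPM. In the CF gallbladder libraries of those days it was 1429 to 3996 CPM except for the second d120 library, at 59010 CPM. Detected genes numbered 15390 in the first WT d120 gallbladder library and 16817 in the first CF d80 gallbladder library, against 18249 to 20598 in the other gallbladder libraries.

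In fetal liver, none of the 9 channel genes passed the test of CF against WT over the mean of the 5 stages (edgeR). KCNE3, the accessory subunit that holds KCNQ1 open, came nearest. Its level had a lowest, median and highest value of 0.999, 3.46 and 6.18 CPM in the 10 CF fetal libraries, against 0.882, 1.7 and 4.14 CPM in the 10 WT fetal libraries. The groups overlapped broadly over all stages. At d65, d80 and d120 both CF libraries stood above both WT libraries, but none of these days passed alone (adjusted p = 0.294, 0.293 and 0.317, edgeR). The share of all genes that separated in this way on those days is not given here. The mean change, CF minus WT, was 0.83 ± 0.23 on the log2 scale (SE), with an adjusted p of 0.0665 (quasi-likelihood test of edgeR, adjusted after Benjamini and Hochberg). Over 29 alternative settings that p ran from 0.0132 to 0.551, and it passed the threshold of 0.05 in 5 of them. KCNQ1, the pore-forming subunit, was scarce, at 0.139 to 1.07 CPM in CF and 0.337 to 0.728 CPM in WT fetal liver, and its mean change was 0.29 ± 0.38. KCNK1, a weakly inward-rectifying tandem-pore channel, ran from 24.4 to 48.2 CPM in CF and from 26.7 to 41.2 CPM in WT fetal liver, with a mean change of 0.10 ± 0.16.

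The remaining genes also overlapped between the genotypes in fetal liver. KCNN2, a small-conductance calcium-activated channel described in cultured biliary cells, had a median of 1.93 CPM in CF and 2.73 CPM in WT libraries. KCNK5, an alkaline-activated tandem-pore channel known from the kidney's proximal tubule, had a median of 1.59 CPM in CF and 1.94 CPM in WT libraries. KCNJ15, an inward rectifier, had a median of 1.09 CPM in CF and 1.26 CPM in WT libraries. KCNJ16, an inward rectifier subunit that works only beside a partner such as KCNJ15, and KCNMA1, the large-conductance channel activated by calcium and voltage and abundant in smooth muscle, were near the limit of detection. KCNJ16 did not exceed 0.595 CPM in CF and 0.615 CPM in WT fetal liver, and KCNMA1 did not exceed 0.395 CPM in CF and 0.282 CPM in WT fetal liver. KCNJ16 had no count in the 2 CF libraries of d65, at least 3.34-fold lower than in WT. KCNMA1 had none in the 2 CF libraries of d80, at least 7.27-fold lower than in WT. Both bounds set the empty group at 3 counts over its libraries, which covers counting error only, and neither gene passed the test at those days. At d100 KCNMA1 had 3 counts over the 2 CF libraries and 11 counts over the 2 WT libraries, and WT exceeded CF by a ratio of 3.46 (95% counting interval 0.915 to 19.3).

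Over the mean of the fetal stages, 0 of 9 members passed, against 2.54% of all genes tested. At an unadjusted p under 0.05 there were 2 of 9 members, KCNE3 and KCNJ16, against 15.7% of all genes. DESeq2 called 1 of 9, KCNE3 (adjusted p = 0.0132), against 5.54% of all genes. The median change of the 9 members was -0.16, against -0.05 over all genes. No member separated the 10 CF from the 10 WT fetal libraries without overlap, which 0.157% of all genes did. At single fetal stages edgeR called 0 of 9 members at each. The share of all genes called was 0% (d50), 1.65% (d65), 0.0727% (d80), 0.0424% (d100) and 0.0242% (d120). At an unadjusted p under 0.05 the members numbered 0 at d50 (2.25% of all genes), 2 on d65 (18.8%), 2 on d80 (9.15%), 0 on d100 (4.39%) and 2 on d120 (14.3%). DESeq2 called 1 member at d120, KCNN4, and 0 at the other stages, and its share of all genes was 0.164% (d50), 7.48% (d65), 1.22% (d80), 0.291% (d100) and 1.82% (d120). KCNN4 at d120 stood at 4.42 and 4.98 CPM in CF liver, against 15.5 and 11 CPM in WT liver, and did not overlap. Its change there was -1.49 ± 0.35 (adjusted p = 0.125, edgeR), and the adjusted p ran from 0.0111 to 0.94 over 9 alternatives, with 1 of them past the threshold.

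**Figure D1:**
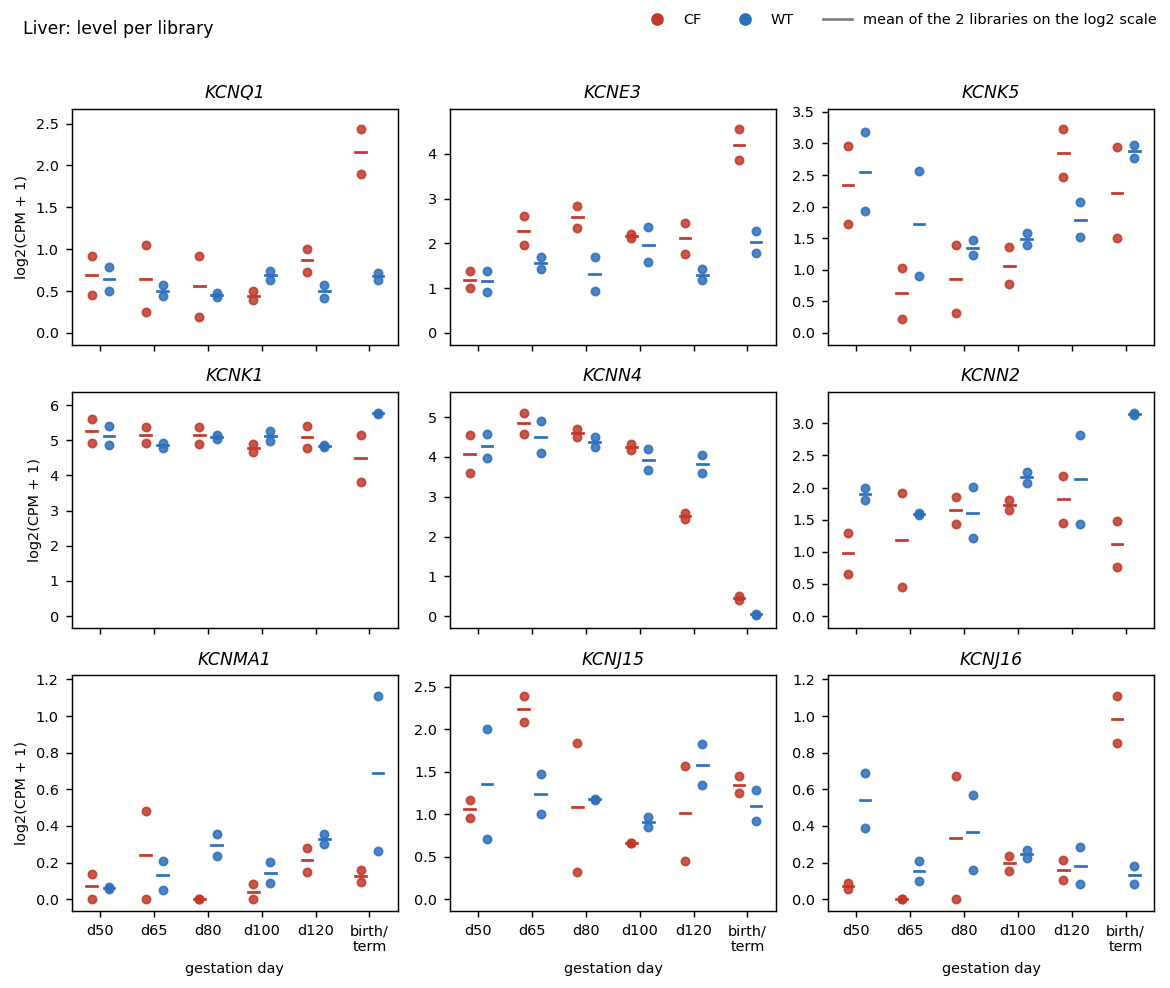
Level of each channel gene in every liver library, as log2(CPM + 1), by gestation day and at birth (CF) or term (WT); points are libraries, CF to the left of WT, and bars are the mean of the 2 libraries on that scale. KCNN4 was lowest at the end of gestation in both genotypes, while KCNE3 and KCNQ1 were highest in CF liver at birth, at 13.6 and 22.3 CPM and at 2.72 and 4.39 CPM.

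KCNN4, the intermediate-conductance calcium-activated channel, showed the widest range over liver libraries of all members eligible for that comparison. It is a basolateral channel of secretory epithelia and also the Gardos channel of red cells. In CF liver its level was 22.4 and 11 CPM at d50, 33.6 and 22.9 CPM at d65, 21.5 and 24.8 CPM at d80, 17 and 19.2 CPM at d100, 4.42 and 4.98 CPM at d120, and 0.412 and 0.33 CPM at birth. In WT liver it was 14.8 and 22.8 CPM at d50, 16 and 29 CPM at d65, 18.1 and 21.7 CPM at d80, 17.2 and 11.8 CPM at d100, 15.5 and 11 CPM at d120, and 0.019 and 0.0403 CPM at term. In order of the group means, CF d65 was highest and WT term lowest. The groups from d50 to d100 and WT d120 overlapped their neighbours in that order, while CF d120, CF birth and WT term each lay clear below the rest.

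The fetal age slope was a line fitted through the 5 fetal stages within a genotype, given as the change from d50 to d120. KCNN4 fell by 1.84 on the log2 scale in CF liver (SE 0.32, adjusted p = 0.00124, edgeR), and it was the only member with a slope past the threshold in either genotype. The fall was not even: CF means were 16.7 (d50), 28.3 (d65), 23.1 (d80), 18.1 (d100) and 4.7 CPM (d120). The KCNN4 call in CF held in all 15 alternatives run for it, with slopes from -2.15 to -1.38. None of these left out both CF d120 libraries. Among them, 1 unit per donor-number stem gave -1.82 (adjusted p = 0.0116), when 7.11% of all genes passed. In CF liver 1 of 9 members passed, against 16.5% of all genes. In WT liver the KCNN4 slope was -0.68 ± 0.31 (adjusted p = 0.242), and 0 of 9 members passed, against 4.8% of all genes. The unadjusted test gave 1 member in WT, against 19% of all genes, and DESeq2 gave 0, against 9.06%. The difference of the slopes, CF minus WT, was -1.16 ± 0.44 for KCNN4 (adjusted p = 0.334, and 0.108 to 0.927 over 25 alternatives). For that difference 0 of 9 members passed, against 0.00606% of all genes. There were 2 of 9 at an unadjusted p under 0.05, KCNN4 and KCNJ16, against 13.2% of all genes, and 0 by DESeq2, against 1.08%. A steeper slope in CF than in WT liver was therefore not shown. Without the second WT d65 library the WT slope of KCNN4 was -0.48 (adjusted p = 0.399) and the slope difference -1.36 (adjusted p = 0.156), and 0 of 9 members passed in either. Around the channels, the slope of the anion channel BEST1 was negative in both genotypes, at -2.23 ± 0.62 in CF (adjusted p = 0.025) and -2.94 ± 0.65 in WT (adjusted p = 0.0138). CFTR had the only positive slope past the threshold among the anion secretion partners, in CF, at 3.72 ± 0.51 (adjusted p = 0.000132). KCNMB4, an accessory subunit of KCNMA1 channels, had slopes of 1.20 ± 0.39 in CF (adjusted p = 0.0418) and 1.22 ± 0.39 in WT (adjusted p = 0.0826).

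Between d120 and the end of gestation KCNN4 fell in both genotypes. In CF liver it stood at 0.412 and 0.33 CPM at birth, against 4.42 and 4.98 CPM at d120, a change of -3.65 ± 0.41 (adjusted p = 1.01e-05, edgeR). In WT liver it stood at 0.019 and 0.0403 CPM at term, against 15.5 and 11 CPM at d120. The 2 WT term libraries held only 3 KCNN4 counts together, against 1091 counts over the 2 WT d120 libraries, and WT d120 exceeded WT term by a ratio of 437 (95% counting interval 149 to 2124). The fitted change in WT was -8.70 ± 0.59 (adjusted p = 8.9e-09), a value that depends on how 3 counts are treated. Both falls held in all 9 alternatives of each, with fitted changes from -3.83 to -2.05 in CF and from -9.27 to -3.77 in WT. The WT term libraries carry library numbers from another range than the WT d120 libraries. Library set and stage therefore cannot be told apart in the WT fall, in any of the alternatives.

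Erythroid markers moved with KCNN4. Of 8 such markers 7 were in the liver table, among them ALAS2, the first enzyme of haem synthesis in red cell precursors, and SLC4A1, the red cell anion exchanger. Their summed level was 47.9 and 53.5 CPM in CF liver at birth and 34.2 and 36.8 CPM in WT liver at term, against 2043 to 5588 CPM in CF and 3014 to 6711 CPM in WT fetal liver. The CF d120 libraries, at 2043 and 2180 CPM, were the lowest of all fetal livers for these markers, as they were for KCNN4. All 7 markers fell between d120 and the end of gestation in each genotype. ALAS2 lay between 1.8 and 8.36 CPM in CF birth and between 0.242 and 0.59 CPM in WT term liver. The part of red cell precursors in the KCNN4 values was not tested. By root mean square difference of the centred log2(CPM + 1) values over the 24 liver libraries, the genes most like KCNN4 among 11935 genes compared were ICAM4, at 0.253, and PPP1R1B, at 0.257. ICAM4, an adhesion molecule of red cells, ran from 0 to 0.25 CPM in CF birth and from 0.0201 to 0.0761 CPM in WT term liver, and from 5.7 to 39.5 CPM in CF fetal liver.

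**Figure D2:**
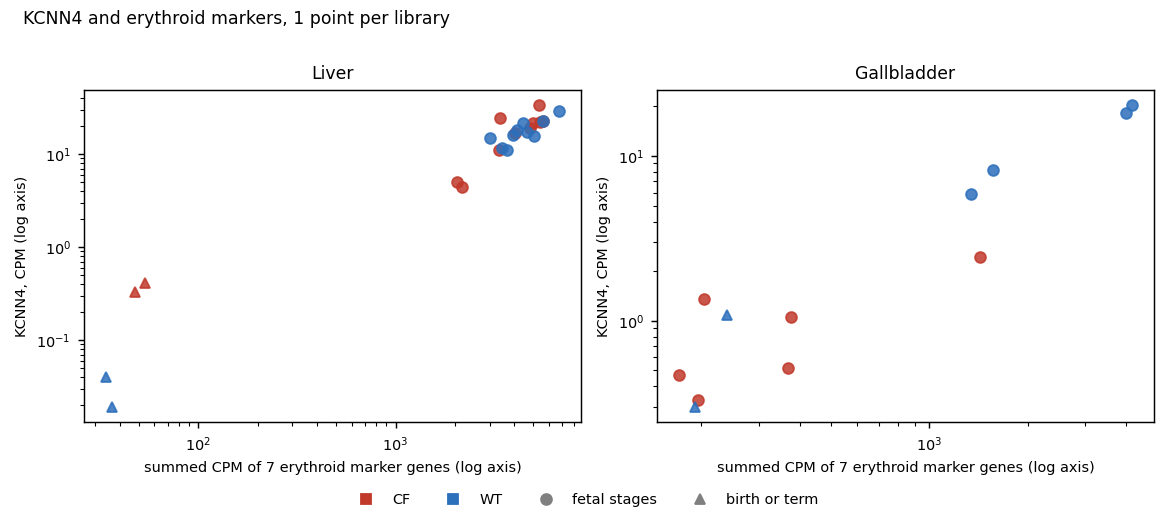
KCNN4 level against the summed level of 7 erythroid marker genes, both in CPM on log axes, 1 point per library, for liver on the left and gallbladder on the right; circles are fetal stages and triangles birth or term. Liver libraries at birth and term had 34.2 to 53.5 CPM of erythroid markers and at most 0.412 CPM of KCNN4, and the 4 WT gallbladder libraries of d100 and d120 were highest in KCNN4 there, at 5.91 to 20.3 CPM.

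At the end of gestation KCNE3, KCNQ1 and KCNN4 were higher and KCNK1 and KCNN2 lower in CF liver at birth than in WT liver at term. KCNE3 stood at 13.6 and 22.3 CPM in CF liver at birth, against 2.43 and 3.81 CPM in WT liver at term, and at 0.999 to 6.18 CPM in CF fetal liver. The CF birth libraries were the highest of all 24 liver libraries for KCNE3. The change, CF birth minus WT term, was 2.52 ± 0.53 (adjusted p = 0.00143, edgeR), and within CF liver KCNE3 also rose by 2.38 ± 0.53 between d120 and birth (adjusted p = 0.0048). Its channel partner KCNQ1 stood at 2.72 and 4.39 CPM in CF liver at birth, against 0.552 and 0.645 CPM in WT liver at term, a change of 2.57 ± 0.86 (adjusted p = 0.0281). That call was kept in 6 of 10 alternatives, whose changes ran from 1.49 to 4.76 and adjusted p up to 0.476, and the KCNE3 call was kept in 9 of 10. Both CF libraries were again the highest of the 24.

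KCNN4 was also higher in CF birth than in WT term liver, but at a low level in both. There were 48 counts over the 2 CF birth libraries and 3 counts over the 2 WT term libraries, a ratio of 12.7 (95% counting interval 4.1 to 63.9), with a fitted change of 3.56 ± 0.70 (adjusted p = 0.000817, edgeR). On the log2(CPM + 1) scale, which damps low values, limma gave 0.41 and an adjusted p of 0.36. Erythroid markers differed in the same direction: 6 of 7 tested were higher in CF birth than in WT term liver, and their part in the KCNN4 difference was not tested.

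The leak channel KCNK1 and the calcium-activated KCNN2 were lower in CF birth liver. KCNK1 stood at 34.8 and 13.1 CPM in CF liver at birth, against 54.3 and 53.1 CPM in WT liver at term, a change of -1.17 ± 0.36 (adjusted p = 0.0177, edgeR), kept in 6 of 10 alternatives with adjusted p up to 0.426. KCNN2 stood at 1.8 and 0.693 CPM in CF liver at birth, against 7.97 and 7.7 CPM in WT liver at term, a change of -2.65 ± 0.78 (adjusted p = 0.014), kept in 8 of 10. For both genes the second CF birth library was the lower, and the 2 WT term libraries were the highest of all 24 liver libraries. Within WT liver KCNK1 rose by 0.96 ± 0.36 between d120 and term (adjusted p = 0.0449, edgeR), a call kept in 4 of 9 alternatives, whose adjusted p ran from 0.0227 to 0.237. Library set and stage cannot be told apart in that rise either. KCNJ16 stood at 1.16 and 0.809 CPM in CF liver at birth, against 0.133 and 0.0604 CPM in WT liver at term, without overlap (change 3.31 ± 1.45, adjusted p = 0.0902). KCNK5, KCNJ15 and KCNMA1 did not pass, at -0.58 ± 0.90, 0.41 ± 0.86 and -2.85 ± 1.68 in that order.

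At the end of gestation 5 of 9 members passed, 3 higher and 2 lower in CF, against 33.7% of all genes. Libraries did not overlap for 7 of 9 members, against 62.2% of all genes, so that separation was common in this comparison. Between d120 and the end of gestation 2 of 9 members passed in CF liver, against 14.7% of all genes, and 2 of 9 passed in WT liver, against 35.4%. The genotypes differed in that late change for 2 of 9 members, against 21.1% of all genes. They were KCNN4, at 5.05 (adjusted p = 0.000288, past the threshold in all 13 alternatives), and KCNK1, at -1.47 (adjusted p = 0.0459, past it in 6 of 13). The size for KCNN4 ran from 1.72 to 5.62 over those alternatives, and it rests on the 3 counts of the WT term libraries. This comparison was added after the data were seen.

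Markers of other cells differed between the same libraries. In the 2 CF birth livers the 10 hepatocyte markers summed to 113005 and 27537 CPM, against 137523 and 140315 CPM in the 2 WT term livers, and 7 of 10 fell. The 10 bile duct markers summed to 592 and 466 CPM in CF birth liver, against 396 and 374 CPM in WT term liver. Of 9 bile duct markers tested, 5 rose and 1 fell. Among them KRT7 and KRT19, keratins of bile duct cells, stood at 100 to 125 and at 71.8 to 97.4 CPM in CF birth liver, against 2.42 to 3.01 and 2.42 to 8.26 CPM in WT term liver. The endothelial and fibroblast markers summed to 1625 and 3224 CPM in CF birth liver, against 467 and 355 CPM in WT term liver, and 7 of 8 rose. With the mean log2(CPM + 1) of the bile duct markers tested, and not their sum, as a covariate, 0 of 9 members and 0.418% of all genes passed. The summed bile duct markers did not overlap between CF birth and WT term liver, so that fit cannot tell their level apart from genotype. Without the second CF birth library 2 of 9 members and 23.7% of all genes passed. Without the first or the second WT term library 3 of 9 members passed, with 20.5% and 24% of all genes. The WT term libraries carry library numbers from another range than the other liver libraries, so library set and genotype cannot be told apart here. Library set also enters the genotype difference in the late change, through the WT term libraries.

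The pathway around the channels was measured in the same libraries. Of 13 genes for the partners of anion secretion tested, 4 rose and 2 fell in CF birth against WT term liver, where 33.7% of all genes passed, with a median change of -0.10 against 0.04 over all genes. SLC12A2, the sodium-potassium-chloride cotransporter that loads chloride into the cell, was 10.7 to 14.6 CPM in CF birth and 1.19 to 1.52 CPM in WT term liver (3.22 ± 0.72, adjusted p = 0.00235). CFTR rose by 4.92 ± 0.61 and the anion exchanger SLC26A6 by 1.77 ± 0.43, while the calcium-activated chloride channel ANO1 fell by 1.34 (SE 0.31). Of 17 genes for calcium and cAMP inputs, 6 rose and 4 fell, with a median of 0.12. SCTR, the secretin receptor of bile duct cells, was 78.4 to 86 CPM in CF birth and 2.34 to 3.86 CPM in WT term liver (4.73 ± 0.41, adjusted p = 5.73e-07). The calcium release channel ITPR2, the ATP-gated channel P2RX4 and the kinase subunit PRKAR2A fell by 1.12, 1.17 and 1.14.

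Among the potassium channel relatives, 2 of 15 rose and 1 fell in that comparison, against 33.7% of all genes, with a median of 0.73. KCNJ8, a pore of ATP-sensitive channels in vessel walls, rose by 1.85 ± 0.44, the small-conductance channel KCNN3 rose by 2.24 ± 0.55, and KCNT2 fell by 2.42 (SE 0.63). Of 5 auxiliary subunits tested, KCNMB3 alone passed, at 1.92 ± 0.69 (adjusted p = 0.0383). In fetal liver, where 2.54% of all genes passed over the mean of the stages, 0 of 13 anion secretion genes, 0 of 5 auxiliary subunits and 0 of 15 relatives did. Of the 17 input genes 1 passed, P2RY2, the receptor for extracellular ATP and UTP that evokes calcium signals, which rose by 1.22 ± 0.23 in CF (adjusted p = 0.00621). CFTR had a change of 0.87 ± 0.24 there (adjusted p = 0.0636).

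In gallbladder the channel genes differed between CF and WT fetuses in both directions. KCNJ15, KCNK5 and KCNE3 were higher in CF gallbladder over the mean of d100 and d120, and KCNN4, KCNN2 and KCNK1 were lower. KCNE3 stood at 146 and 137 CPM at d100 and at 96.4 and 39.3 CPM at d120 in CF gallbladder, against 40 and 39.5 CPM at d100 and 51 and 10.9 CPM at d120 in WT gallbladder. The groups separated at d100 and overlapped at d120, and the mean change was 1.48 ± 0.47 (adjusted p = 0.0317, edgeR). KCNQ1 stood at 9.51 and 10.6 CPM at d100 and at 10.8 and 6.99 CPM at d120 in CF gallbladder, against 3.37 and 4.73 CPM at d100 and 0 and 5.62 CPM at d120 in WT gallbladder. All 4 CF libraries lay above all 4 WT libraries, but the mean change of 1.47 ± 0.98 did not pass (adjusted p = 0.24). The first WT d120 library, where KCNQ1 was at 0, was the one with the fewest detected genes.

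KCNK5 stood at 19.8 and 19.5 CPM at d100 and at 26.8 and 10.9 CPM at d120 in CF gallbladder, against 5.4 and 6.8 CPM at d100 and 0 and 0.286 CPM at d120 in WT gallbladder. The mean change was 4.24 ± 1.18 (adjusted p = 0.021, edgeR) with 6.80 ± 1.89 at d120 (adjusted p = 0.0369) and 1.68 ± 1.45 at d100 (adjusted p = 0.423). The d120 value was set against 0 and 13 counts in the WT d120 libraries, the first of which had the fewest detected genes. It ran from 4.01 to 12.72 over 11 alternatives and kept its call in 4 of them. The difference between the days, 5.12 ± 2.22, did not pass (adjusted p = 0.367). KCNJ15 stood at 39.4 and 50 CPM at d100 and at 43.3 and 11 CPM at d120 in CF gallbladder, against 5.88 and 4.91 CPM at d100 and 1.55 and 3.6 CPM at d120 in WT gallbladder. It passed at each day alone, with 3.05 ± 0.68 at d100 (adjusted p = 0.0387) and 3.38 ± 0.69 at d120 (adjusted p = 0.0203), and its mean change was 3.22 ± 0.49 (adjusted p = 0.00397). The d100 call was kept in 4 of 11 alternatives and was lost with the CF d100 columns summed (adjusted p = 0.224) and with 1 unit per donor-number stem (adjusted p = 0.233), when 0% of all genes passed at d100. The d120 call was kept in 9 of 11. Its possible partner KCNJ16 stayed at or below 0.196 CPM in CF and 0.149 CPM in WT gallbladder at these days. At d120 KCNJ16 had 17 counts over the 2 CF libraries and 0 over the 2 WT libraries, at least 3.61-fold higher with the empty group set at 3 counts, without passing the test (adjusted p = 0.0558).

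KCNN4 had the most negative change of the 9 members in CF gallbladder. It stood at 0.47 and 0.333 CPM at d100 and at 0.518 and 2.45 CPM at d120 in CF gallbladder, against 20.3 and 18.2 CPM at d100 and 8.23 and 5.91 CPM at d120 in WT gallbladder. The 4 CF libraries all lay below the 4 WT libraries, and the mean change was -3.91 ± 0.62 (adjusted p = 0.00448, edgeR). KCNN2 stood at 0.296 and 0.333 CPM at d100 and at 0.222 and 1.41 CPM at d120 in CF gallbladder, against 3.7 and 4.47 CPM at d100 and 2.23 and 1.74 CPM at d120 in WT gallbladder, a mean change of -2.48 ± 0.65 (adjusted p = 0.0177). KCNK1 stood at 13.2 and 11.4 CPM at d100 and at 13.7 and 21.4 CPM at d120 in CF gallbladder, against 51 and 38.7 CPM at d100 and 27.7 and 26.2 CPM at d120 in WT gallbladder, a mean change of -1.24 ± 0.24 (adjusted p = 0.00746). Neither gene overlapped between the genotypes. KCNMA1 stood at 0.766 to 3.74 CPM in CF and 0 to 0.483 CPM in WT gallbladder, also without overlap, and its change of 3.33 ± 1.25 did not pass (adjusted p = 0.0557). The 2 WT d100 gallbladder libraries held 213057 and 215856 CPM of hepatocyte markers. Mean KCNN4, KCNN2 and KCNK1 in them were 19.3, 4.08 and 44.9 CPM. In WT d100 liver, scaled separately, the means were 14.5, 3.48 and 34.1 CPM. The part of liver cells in the KCNN4, KCNN2 and KCNK1 differences was not tested.

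**Figure D3:**
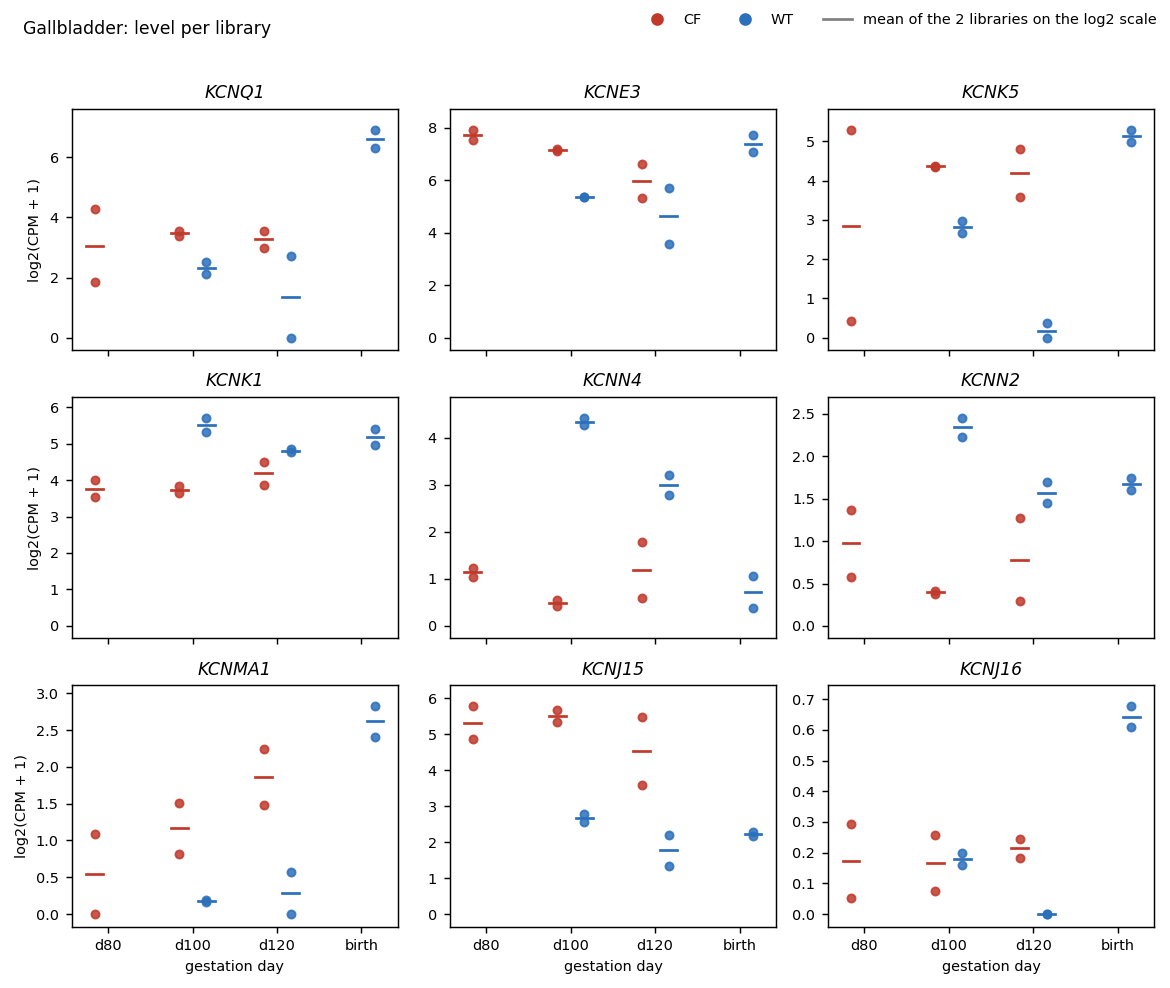
Level of each channel gene in every gallbladder library, as log2(CPM + 1), by gestation day and at birth; points are libraries, CF to the left of WT where both were sampled, and bars are the mean of the 2 libraries on that scale. KCNJ15 was at least 11 CPM in all 6 CF libraries and at most 5.88 CPM in all 6 WT libraries, while KCNN4 was high in the 4 WT libraries of d100 and d120 alone.

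Over the mean of d100 and d120, 6 of 9 members passed, 3 in each direction, against 43.7% of all genes, with a median change of 1.48 for the members and 0.16 for all genes. Libraries did not overlap for 7 of 9 members, against 49% of all genes. Of 18 alternatives, 16 kept the call for each of KCNN4, KCNK1 and KCNJ15, 10 for KCNN2, 9 for KCNE3 and 8 for KCNK5. At d100 alone 3 of 9 members passed, KCNN4, KCNK1 and KCNJ15, against 6.53% of all genes, and none of the 3 did with the CF d100 columns summed. At d120 alone 2 of 9 passed, KCNK5 and KCNJ15, against 22.7%. For the difference between genotypes in the change from d100 to d120, 0 of 9 members passed by edgeR, against 0% of all genes. There were 4 of 9 at an unadjusted p under 0.05, against 13.2%, and 0 of 9 by DESeq2, against 5.3%.

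Markers of other cells differed between the same gallbladder libraries, and their part in the results was not tested. The 7 erythroid markers in the table summed to 171 to 369 CPM in 3 of the CF libraries and to 1424 CPM in the second CF d120 library, against 1345 to 4168 CPM in WT, and 4 of 7 fell. Endothelial and fibroblast markers summed to 31560 to 61151 CPM in CF and 7824 to 17515 CPM in WT, smooth muscle markers to 342 to 1807 CPM in CF and 1259 to 4115 CPM in WT, and 10 bile duct markers to 1973 to 4494 CPM in CF and 1605 to 3882 CPM in WT. The second CF d120 library, with 59010 CPM of hepatocyte markers, had the highest KCNN4, KCNN2 and KCNK1 and the lowest KCNE3, KCNK5, KCNJ15 and KCNQ1 of the 4 CF libraries. The 2 WT d100 libraries, with 213057 and 215856 CPM of hepatocyte markers, had the highest KCNN4, KCNN2 and KCNK1 of the 4 WT libraries, but also the highest KCNK5 and KCNJ15. Each covariate was the mean log2(CPM + 1) of the markers tested, and not their sum. The summed hepatocyte markers did not overlap between the genotypes at d100 and d120, at most 59010 CPM in CF and at least 85564 CPM in WT. A fit with these markers therefore cannot tell their level apart from genotype. With the hepatocyte covariate, 0 of 9 members passed, against 4.19% of all genes. KCNN4 then had a change of -3.23 (adjusted p = 0.0578), KCNJ15 of 2.30 (adjusted p = 0.0587) and KCNK5 of 4.36 (adjusted p = 0.108), while KCNE3 had 1.01 (adjusted p = 0.326), KCNK1 -0.88 (adjusted p = 0.108) and KCNN2 -1.70 (adjusted p = 0.206). With smooth muscle markers as a covariate 0 of 9 passed, against 4.97% of all genes, and KCNN4 had -2.99 (adjusted p = 0.0566), KCNJ15 1.99 (adjusted p = 0.0507) and KCNK1 -1.18 (adjusted p = 0.0847). In that fit KCNK5 had 1.29 (adjusted p = 0.489), KCNE3 0.77 (adjusted p = 0.478) and KCNN2 -1.18 (adjusted p = 0.283).

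Some libraries share an origin. The 2 WT d100 libraries carry donor numbers with a shared stem, and without the first or the second of them 3 of 9 members passed, with 13.6% and 17.7% of all genes. The 2 CF d100 columns share a library number. With these columns summed as 1 unit 3 of 9 passed, against 19.1% of all genes: KCNN4, KCNK1 and KCNJ15, at -3.90, -1.24 and 3.22. The same 3 passed with 1 unit per donor-number stem, against 15.3% of all genes, at adjusted p-values of 0.0259, 0.0341 and 0.0276. Scaled on genes scarce in liver, which moved the median of all genes to -0.19 against 0.16, 6 of 9 passed, against 34% of all genes, and all 6 kept their direction.

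**Figure D4:**
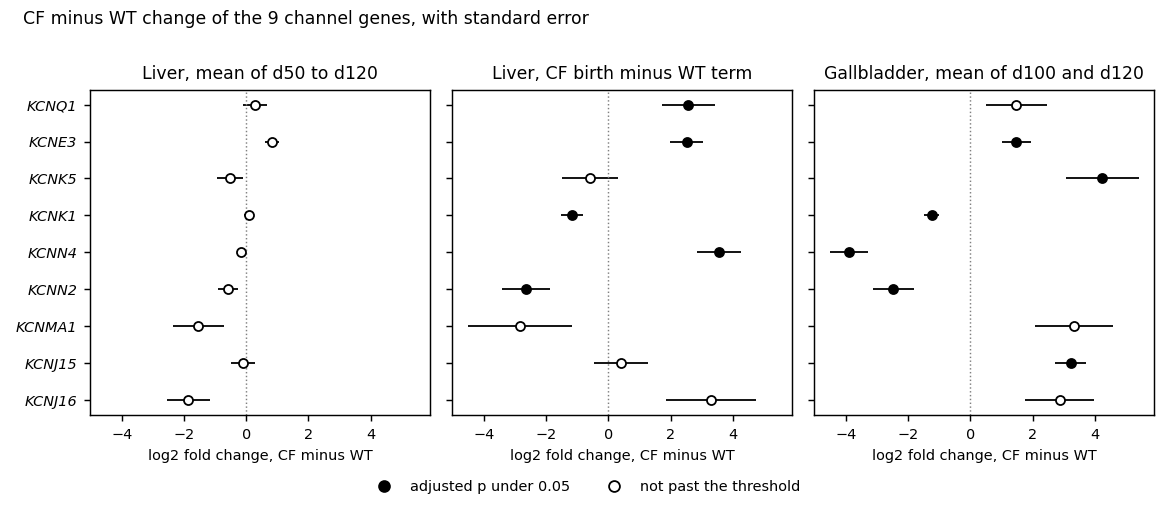
Change of each channel gene, CF minus WT, on the log2 scale with its standard error, in fetal liver (mean of d50 to d120), in liver at the end of gestation and in gallbladder (mean of d100 and d120); filled points had an adjusted p under 0.05 by edgeR. No member passed in fetal liver, 5 passed at the end of gestation and 6 in gallbladder, and KCNN4 was higher in CF in late liver (3.56) and lower in gallbladder (-3.91).

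The partners of anion secretion differed in the same gallbladder comparison, with 5 of 13 tested higher and 1 lower in CF, a share near the 43.7% of all genes, and a median of 1.49 against 0.16 over all genes. SLC12A2 was 74.4 to 288 CPM in CF and 42.8 to 43.9 CPM in WT gallbladder at d100 and d120 (2.22 ± 0.48, adjusted p = 0.0102). LRRC8A, a subunit of volume-regulated anion channels, rose by 2.49 ± 0.50, with 28.1 to 47.2 CPM in CF and 2.14 to 14.2 CPM in WT. SLC26A6 fell by 1.95 (SE 0.36), with 3.48 to 9.26 CPM in CF and 11.7 to 33.3 CPM in WT. Of 17 input genes 4 rose and 2 fell, with a median of 0.09. PRKACA, a catalytic subunit of protein kinase A, was 25.4 to 32.2 CPM in CF and 0 to 6.02 CPM in WT, the purine receptor P2RY1 fell by 1.83 (SE 0.32), and SCTR fell by 1.07 (SE 0.28). Of 19 potassium channel relatives 5 rose and 2 fell, with a median of 0.74. Of 4 auxiliary subunits KCNE4 alone passed, at 6.86 to 14 CPM in CF and 1.95 to 3.85 CPM in WT (1.85 ± 0.49, adjusted p = 0.0181).

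WT gallbladder at birth was set against the mean of WT d100 and d120. KCNQ1 stood at 77.4 and 119 CPM at birth, against 3.37, 4.73, 0 and 5.62 CPM in the 4 fetal WT libraries, a change of 4.84 ± 1.19 (adjusted p = 0.0245, edgeR). KCNE3 stood at 207 and 134 CPM at birth, against 10.9 to 51 CPM in the fetal libraries (2.28 ± 0.54, adjusted p = 0.0225). Both subunits of the cAMP-regulated channel were thus higher at birth without overlap. KCNK5 stood at 38.2 and 30.9 CPM at birth, against 0 to 6.8 CPM in the fetal libraries (5.09 ± 1.29, adjusted p = 0.0263). KCNMA1 stood at 6.08 and 4.32 CPM at birth, against 0 to 0.483 CPM in the fetal libraries (4.79 ± 1.40, adjusted p = 0.0377). KCNJ16 stood at 0.599 and 0.525 CPM at birth and was at 0 in both d120 libraries, at least 12.6-fold higher at birth than at d120 against 3 counts over the group (adjusted p = 0.0264 for the mean contrast).

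KCNN4 went the other way, at 0.299 and 1.09 CPM at birth, against 5.91 to 20.3 CPM in the fetal WT libraries (-4.06 ± 0.84, adjusted p = 0.0169, edgeR). The erythroid markers stood at 191 and 239 CPM at birth, against 1345 to 4168 CPM in the fetal WT libraries, and 6 of 7 fell. Their part in the KCNN4 fall was not tested. In the same libraries hepatocyte markers summed to 17229 and 43614 CPM at birth, against 85564 to 215856 CPM in the fetal WT libraries. Bile duct markers summed to 5447 to 6452 CPM at birth, against 1605 to 3882 CPM, with 4 of 9 higher. Endothelial and fibroblast markers summed to 1956 to 2734 CPM at birth, against 7824 to 17515 CPM, with 3 of 8 lower. The part of these cells in the 6 calls was not tested. KCNJ15 stood at 3.91 and 3.48 CPM at birth with a change of -0.02 ± 0.55, KCNK1 at 29.9 and 41.6 CPM with 0.04 ± 0.29, and KCNN2 at 2.35 and 2.04 CPM with -0.37 ± 0.76, none of which passed. In this comparison 6 of 9 members passed, 5 higher and 1 lower at birth, against 27.1% of all genes, and 6 of 9 did not overlap, against 58.2%. Those calls depend on few libraries: 0 of 9 passed without either WT d100 library or without either birth library, when 0.21% to 0.947% of all genes passed, and 3 of 9 passed without the first WT d120 library, against 9.86% of all genes. With 1 unit per donor-number stem 0 of 9 passed, when 0.896% of all genes did. With the mean log2(CPM + 1) of smooth muscle markers as a covariate 1 of 9 passed, against 10.7% of all genes. The summed level of these markers was 713 to 1093 CPM at birth and 1259 to 4115 CPM in the fetal WT libraries. These ranges did not overlap, so that fit cannot tell marker level and stage apart.

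The anion secretion partners moved in that comparison as well, with 6 of 13 higher and 3 lower at birth, where 27.1% of all genes passed, and a median of 1.70 against 0.13 over all genes. SLC12A2 was 218 to 402 CPM at birth and 42.8 to 43.9 CPM in the fetal WT libraries (2.84 ± 0.55, adjusted p = 0.015, edgeR). Of 17 input genes 5 rose and 0 fell, with a median of 0.69, among them P2RY2, at 48 to 62.7 CPM at birth and 7.77 to 21.9 CPM before, and the muscarinic receptor CHRM3, at 7.17 to 14.9 CPM at birth and 0.364 to 3.82 CPM before. Of 19 relatives 2 rose and 2 fell, with a median of 0.01, and KCNJ8 fell by 2.21 (SE 0.60). Of 4 auxiliary subunits 0 passed.

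Within CF gallbladder, the mean of d100 and d120 was set against d80. The d80 pair was discordant: KCNK5 stood at 0.338 and 37.8 CPM, KCNQ1 at 2.62 and 18.3 CPM and KCNMA1 at 0 and 1.12 CPM in its first and second library. KCNE3 stood at 182 and 240 CPM at d80, and its change to the later days was -1.11 ± 0.54 (adjusted p = 0.348, edgeR). KCNJ15 stood at 28 and 54 CPM, KCNK1 at 10.5 and 14.9 CPM and KCNN4 at 1.35 and 1.05 CPM at d80, within or near the range of the later CF libraries. KCNN2, at 1.58 and 0.497 CPM, and KCNJ16, at 0.225 and 0.0368 CPM, were low there as well. No member passed, 0 of 9 against 0.00534% of all genes. There were 0 of 9 at an unadjusted p under 0.05, against 16.8% of all genes, and 0 of 9 by DESeq2, against 4.32%. Without the second d80 library 2 of 9 members passed, when 34.3% of all genes did.

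Patterns over libraries were described for members with a mean of at least 1 CPM and a range of at least 2 on the log2(CPM + 1) scale. In liver the genes most like KCNE3 were PMEPA1, at a root mean square difference of 0.326 over 24 libraries, and JAG1, at 0.399. JAG1, the Notch ligand needed for bile duct formation, stood at 26.4 to 48.8 CPM in CF birth and 7.59 to 8.22 CPM in WT term liver. Nearest to KCNK5 were ANKH (0.302) and MOB3A (0.311), and nearest to KCNN2 were PAMR1 (0.391) and CPB2 (0.406), the last a protease precursor made by hepatocytes. For KCNJ15 in liver the nearest were EIF2AK4 (0.408) and DUSP16 (0.41), against a spread of KCNJ15 itself of 0.518, so the likeness was weak.

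In gallbladder, over 12 libraries and among 13078 genes, IFRD2 (0.309) and again ICAM4 (0.376) were nearest to KCNN4. SLC7A8, an amino acid transporter, and UPK3B, a uroplakin of mesothelium and urothelium, were nearest to KCNJ15, at 0.381 and 0.526. The nearest were ABCA2 (0.595) and BCAM (0.644) for KCNQ1, FLRT3 (0.705) and GHDC (0.71) for KCNE3, and ECHDC1 (0.37) and SUCLA2 (0.395) for KCNK5. They were ABCA1 (0.3) and ASB13 (0.342) for KCNMA1, MMACHC (0.256) and PNPLA7 (0.271) for KCNK1, and PCTP (0.189) and GADD45A (0.251) for KCNN2. The remaining members did not meet the level or range needed in a tissue, namely KCNQ1, KCNMA1, KCNK1 and KCNJ16 in liver and KCNJ16 in gallbladder.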

How the data were processed

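RNA libraries of liver (24) and gallbladder (12) were analysed from the 2 deposited gene tables, which were read as estimated counts and rounded to whole numbers. Per the submitters' processing notes, the tools were Salmon 1.9.0 and 1.10.1, DESeq2, limma, edgeR and STAR 2.7.9a, with no role given, and the genome build is not given in the sources used here. Whether the liver counts were rescaled by length is not known. Per the labels' protocols, total RNA came from frozen tissue. Each tissue was fitted separately with edgeR 4.0.16 (R 4.3.3): filterByExpr, TMM scaling, 1 mean per genotype and stage, quasi-likelihood test, Benjamini-Hochberg adjustment over all genes tested (16508 in liver, 18717 in gallbladder), threshold 0.05. Alternatives used DESeq2 1.42.0, limma 3.58.1 on log2(CPM + 1), other scaling, filters, marker covariates and single libraries left out. WT term was read as the same stage as CF birth. Locus IDs were given symbols from RefSeq for 127 liver and 508 gallbladder genes. Named genes were the 9 members, CFTR, the first genes by adjusted p in each of 4 pathway lists and the 2 genes most like each eligible member. The cell type markers ALAS2, SLC4A1, KRT7 and KRT19 were also named, as examples from their lists. Members and lists were chosen with earlier results of these data known. With 2 libraries per group, and no statement for all of them that they are separate animals, p-values measure the spread between libraries, which may be technical. Counting intervals and floors cover counting error only. Results for some genes of the pathway lists are not reported here.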

Additional observations from a re-analysis of the deposited data

Results flagged for a closer look

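The change from d120 to the end of gestation in liver differed between CF and WT by a test of the difference itself for KCNN4 and KCNK1. The difference, CF minus WT on the log2 scale, was 5.05 for KCNN4 (1.72 to 5.62 over 13 alternatives) and -1.47 for KCNK1. The KCNN4 value rests on the 3 counts of the WT term libraries. The KCNK1 call (adjusted p = 0.0459, edgeR) was kept in 6 of 13 alternatives. The WT term libraries carry library numbers from another range, so library set cannot be told apart from these differences. At d100, both CF libraries lay on one side of both WT libraries in liver and on the other side in gallbladder for 4 of 9 genes, a difference between tissues that was not tested. With 2 libraries a group, 21.5% of the 14004 genes tested in both tissues separated in opposite directions in the same way at d100, and 6.27% at d120. The CF minus WT changes were -0.74 in liver and 1.31 in gallbladder for KCNQ1, -1.73 and 3.27 for KCNMA1, -0.69 and 1.68 for KCNK5, and -0.60 and 3.05 for KCNJ15, in the same order of tissues. At d120 the same held for KCNMA1, at -0.67 in liver and 3.40 in gallbladder, also not tested. In liver at d100, KCNMA1, KCNQ1 and KCNJ15 were below 1 CPM in every library, as was KCNMA1 at d120.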

How the results depend on the processing

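Counts of members past the threshold are given for the settings that moved them, with the share of all genes past it in brackets, which moved too. In fetal liver over the mean of the stages the count was 1 with DESeq2 (5.54%), with no filter on low counts (2.57%) and with hepatocyte markers as a covariate (3.56%), against 0 (2.54%), and over single stages 1 with DESeq2 (KCNN4 at d120, 1.82%), against 0 (0.0242%). In liver at the end of gestation it was 0 with bile duct markers as a covariate (0.418%), against 5 (33.7%), where KCNJ16 turned to -1.47 (adjusted p = 0.939). For gallbladder CF minus WT it was 3 with 1 unit per donor-number stem (15.3%), 0 with hepatocyte (4.19%) or smooth muscle markers (4.97%) as a covariate and 3 with the CF d100 columns summed (19.1%), against 6 (43.7%). Over single gallbladder days it was 9 with DESeq2 (27.6% at d100, 42% at d120), 8 with limma (14.4%, 31.8%) and 1 with the columns summed (0%, 6.37%) or with 1 unit per stem (0%, 5.2%), against 5 (6.53%, 22.7%). For WT gallbladder at birth it was 1 with smooth muscle markers (10.7%) and 0 with 1 unit per stem (0.896%), against 6 (27.1%). The summed columns, the stem units outside the fetal liver mean and the gallbladder mean, the scaling on genes scarce in liver and the contrasts of change between stages by genotype were chosen after seeing the data. With single libraries left out, counts ran from 0 to 1 for the fetal mean, 0 to 0 for single liver stages, 2 to 5 for the end of gestation (3 without the first or second WT term library, 20.5% and 24%, and 2 without the second CF birth library, 23.7%), 0 to 0 for the WT slope, 1 to 2 for the CF slope, 0 to 0 for the slope difference and 3 to 5 for the late change within genotypes. They ran from 3 to 8 for gallbladder CF minus WT (3 without the first or second WT d100 library, 13.6% and 17.7%, or the second CF d100 library, 12.8%), 1 to 5 for its single days, 0 to 6 for WT birth (0 without either WT d100 or birth library, 0.21% to 0.947%, and 3 without the first WT d120 library, 9.86%) and 0 to 2 for CF d80 (2 without its second library, 34.3%). The causes were not tested. No paired analysis was possible because the groups compared within a tissue share fewer than 2 donor numbers and the labels give no replicate numbers. Members below about 1 CPM, KCNJ16 and KCNMA1 in liver above all, were limited by depth.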
